A study of Homo sapiens with 8 samples.

Results

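The genes described here encode coactivators that work with hypoxia-inducible factors (HIFs) and the CITED proteins that compete with HIF for them. The list named 8 genes, CITED2, CITED4, EP300, CREBBP, CDK8, CDK19, KAT5 and TRIM28, and its members were found by their symbol among the 23193 genes of the count tables. A row was found for 7 of the 8, and CITED4 was not analysed here. PRO-seq, which sequences the RNA that engaged RNA polymerases extend in a nuclear run-on, was performed in HCT116 cells, an established human colorectal carcinoma line. Wild-type (WT) HCT116 cells and HIF1A-/- HCT116 cells, in which both copies of HIF1A are disrupted, were kept in normoxia or exposed to 1% O2 for 90 min, and all of these cultures received DMSO as vehicle. There were 2 libraries in each of the 4 groups and 8 in all, described by the study as biological duplicates. The HIF1A-/- cells were made by homologous recombination within the gene, so differences between them and WT cells hold for these derived cells and cannot be told apart from changes acquired while the line was made and grown. The design asks whether nascent transcription of each coactivator gene responded to acute hypoxia, whether that response needed HIF1A, and whether levels differed between the genotypes at each oxygen level.

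HIF transcription factors are dimers of an oxygen-labile alpha subunit and a stable beta subunit. In hypoxia the alpha subunit escapes hydroxylation, enters the nucleus and binds hypoxia response elements, whose core is ACGTG or GCGTG. Its C-terminal transactivation domain binds the histone acetyltransferases p300 (EP300) and CBP (CREBBP), and CITED2 and its relatives bind the same domain of p300 and CBP, so CITED2 limits HIF activity. CITED2 is itself known as a gene that HIF can induce, which makes it a negative feedback gene. CDK8 and its paralog CDK19 are the kinases of Mediator, the complex that connects transcription factors to RNA polymerase II. KAT5 (TIP60) is the acetyltransferase of the TIP60 chromatin complex, and TRIM28 is a scaffold best known for silencing through KRAB zinc finger proteins that also associates with paused polymerase.

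The sequence before the start sites is shown for CITED2, the feedback gene, and for the paralogous Mediator kinases CDK8 and CDK19, of which CDK19 was called in hypoxia in 1 of 2 fits. Windows of 300 bases before each counted start site were read from the GRCh37 genome, the build of the counted regions, and searched on both strands for ACGTG and for GCGTG. Capitals mark a match to either motif, and where both strands match in overlapping letters they form the palindrome CACGTG. The sequences run 5′ to 3′ on the strand of the gene. The CITED2 window lies on the minus strand at chr6:139695788-139696087, the CDK8 window on the plus strand at chr13:26827940-26828239, and the CDK19 sequence on the minus strand at chr6:111137162-111137388, where it stops before an annotated exon.
CITED2: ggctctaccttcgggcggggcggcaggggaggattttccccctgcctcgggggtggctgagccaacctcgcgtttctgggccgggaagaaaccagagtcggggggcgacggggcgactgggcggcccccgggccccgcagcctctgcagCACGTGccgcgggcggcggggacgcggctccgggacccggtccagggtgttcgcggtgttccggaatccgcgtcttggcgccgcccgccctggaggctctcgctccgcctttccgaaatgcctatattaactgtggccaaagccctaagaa
CDK8: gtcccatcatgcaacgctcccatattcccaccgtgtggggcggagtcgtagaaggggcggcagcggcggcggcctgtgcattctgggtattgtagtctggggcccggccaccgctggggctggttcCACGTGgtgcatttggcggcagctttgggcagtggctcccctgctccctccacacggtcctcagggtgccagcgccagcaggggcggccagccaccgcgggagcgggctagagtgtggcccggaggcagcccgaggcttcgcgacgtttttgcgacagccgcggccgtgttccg
CDK19: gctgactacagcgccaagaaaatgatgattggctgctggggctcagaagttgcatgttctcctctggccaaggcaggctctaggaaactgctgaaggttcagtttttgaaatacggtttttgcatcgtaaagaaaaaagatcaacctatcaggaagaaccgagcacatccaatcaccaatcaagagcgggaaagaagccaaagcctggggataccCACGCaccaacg

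CITED2 held 1 CACGTG, which begins 151 bases before its start site, and CDK8 held 1 that begins 174 bases before its own. CDK19 held no ACGTG and 1 GCGTG, read on the opposite strand, whose first base on the strand shown lies 85 bases before its start site. Of the members whose windows are not printed, KAT5 held 2 CACGTG, and TRIM28 held 1 ACGTG and 3 GCGTG. EP300 and CREBBP held neither motif. The windows of TRIM28 and CREBBP lie wholly in annotated exon of these genes (300 bases each). The sequence before their annotated starts was therefore not searched. Among the 23190 windows of all genes that could be read in full, 21.9% held ACGTG, 40% held GCGTG and 51.8% held at least 1 of them, so a match is common and marks no HIF site by itself. GC content was 70.7% in the CITED2 window, 69.3% in that of CDK8 and 53.7% in that of CDK19, against a median of 58.7% over all windows.

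Reads were counted in 2 regions of each gene. The TSS region runs from 50 bp before the start site to 500 bp after it and holds mostly polymerases paused near the promoter, and the gene body, which begins beyond the TSS region and runs to the end of the gene, holds elongating polymerases. The pausing index is the read density of the TSS region over that of the gene body. Gene body totals were 18125234 to 23622392 reads per library and TSS totals 2783581 to 5966348, and the pair of HIF1A-/- libraries numbered replicate 1 had the lowest TSS totals (2783581 in normoxia and 3011758 in hypoxia). HIF1A itself was read at 130 to 161 reads per 1000000 (CPM) in WT gene bodies and at 137 to 175 CPM in HIF1A-/- gene bodies, with a log2 fold change of 0.07 (SE 0.156) between the genotypes in normoxia. The disruption is a short stretch inside the gene that leaves its start site, so these counts do not check the genotype. Of the intestinal epithelial markers EPCAM, CDH1, KRT8, KRT18 and CDX2 had at least 271 gene body counts in every library, while VIL1 had 0 to 15. The leukocyte and endothelial genes PTPRC, CD3E and PECAM1 had at most 10. COL1A1, listed as a fibroblast gene, had 417 to 1188 gene body counts but 0 to 3 TSS counts. The paper names COL1A1 among the genes that acute hypoxia induced in HCT116 cells, so its counts do not mark another cell type here. Whether the start site counted for COL1A1 is the one in use was not tested.

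The gene bodies of the members range from 1396 bp for CITED2 to 204908 bp for CDK19, so levels were compared between genes only as reads per kilobase per 1000000 reads (RPKM). TRIM28 had the highest gene body density, with a median over the 8 libraries of 17.1 RPKM (11.1 to 22.5). CITED2 followed at 5.78 RPKM (4.26 to 9.21), then KAT5 at 3.77 (3.20 to 5.24), EP300 at 3.07 (2.91 to 3.28), CREBBP at 2.09 (1.72 to 2.47), CDK8 at 1.04 (0.910 to 1.13) and CDK19 at 0.684 (0.489 to 0.952). The ranges of neighbours in this order overlapped for CITED2 and KAT5, for KAT5 and EP300, and for CDK8 and CDK19. TRIM28 lay above CITED2, EP300 above CREBBP, and CREBBP above CDK8 in all 8 libraries. The gene bodies lie, in hg19 coordinates, at chr22:41489614-41576081 for EP300, chr16:3775054-3929120 for CREBBP, chr13:26829241-26979375 for CDK8, chr6:110931180-111136087 for CDK19, chr11:65480473-65487077 for KAT5 and chr19:59056836-59062082 for TRIM28. By canonical annotation 43.6% of the TRIM28 gene body and 26.3% of that of KAT5 is exon, against 9.57% for EP300, 6.43% for CREBBP, 2.9% for CDK19 and 1.61% for CDK8. In the TSS region CITED2 stood highest, at a median of 805 RPKM, and KAT5 lowest, at 26.7 RPKM. The order by gene body therefore differed from that by TSS region. Among genes with both regions tested, the pausing index of CITED2 lay between percentiles 68.0 and 88.6 of its library and that of CDK19 between 82.9 and 91.5, while KAT5 lay between percentiles 7.59 and 16.8.

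No member passed the test in any of the 5 comparisons in the gene body, the TSS region or the pausing index when the 4 group means were fitted with edgeR (quasi-likelihood test, Benjamini-Hochberg adjustment over all genes, FDR of 10%). Libraries with the same replicate number deviated together across genes, and the replicate number entered a second fit as a term. It called 3 members at an FDR of 10%: CDK19 and TRIM28 in the gene body, and CREBBP in the TSS region and the pausing index. CITED2 passed in neither fit. In WT gene bodies, 72 of 16686 genes were called in hypoxia (0.431%) and 0 of 7 members, and with the replicate term 5.51% of genes and 1 of 7 members. In HIF1A-/- gene bodies, 0% of genes and 0 of 7 members were called (347 genes passed an unadjusted threshold of 0.05). The share was 0.036% with the replicate term, and 0 of 7 members. For the WT response minus the HIF1A-/- response, 0.0539% of genes were called without the replicate term and 0.384% with it, and 0 of 7 members in either. HIF1A-/- against WT cells in normoxia gave calls in 1.78% of gene bodies and 0 of 7 members, and 10.3% and 0 of 7 with the term. In hypoxia the same comparison gave 4.26% and 0 of 7, and 28.2% and 2 of 7 with the term. At an unadjusted p under 0.05, 0 of 7 members passed in the gene body without the replicate term in each of the 5 comparisons taken in that order, where 4.61%, 2.08%, 1.36%, 9.00% and 15.7% of all genes did. With the replicate term 4 of 7 passed that threshold in WT hypoxia (CITED2, CREBBP, CDK19 and TRIM28), against 20.7% of all genes, and 0 of 7 in HIF1A-/- hypoxia, against 9.62%. It was passed by 1 of 7 (CDK19) for the difference between the responses, against 5.47%, by 0 of 7 between the genotypes in normoxia, against 20.9%, and by 2 of 7 in hypoxia (CDK19 and TRIM28), against 34.4%. DESeq2 without the replicate term called 0 members in the gene body.

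Over the 7 members, the median log2 fold change of the gene body in hypoxia was -0.0035 in WT cells, against -0.018 over all genes tested, and -0.042 in HIF1A-/- cells, against 0.0009. These medians lay close to 0, and only CITED2 and CDK19 had a positive WT value without the replicate term. Between the genotypes in normoxia all 7 members had a positive value (median 0.075, against -0.0055 over all genes), and 0 passed. For the pausing index in WT hypoxia all 7 had a negative value (median -0.16, against -0.052), and 0 passed.

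**Figure D1:**
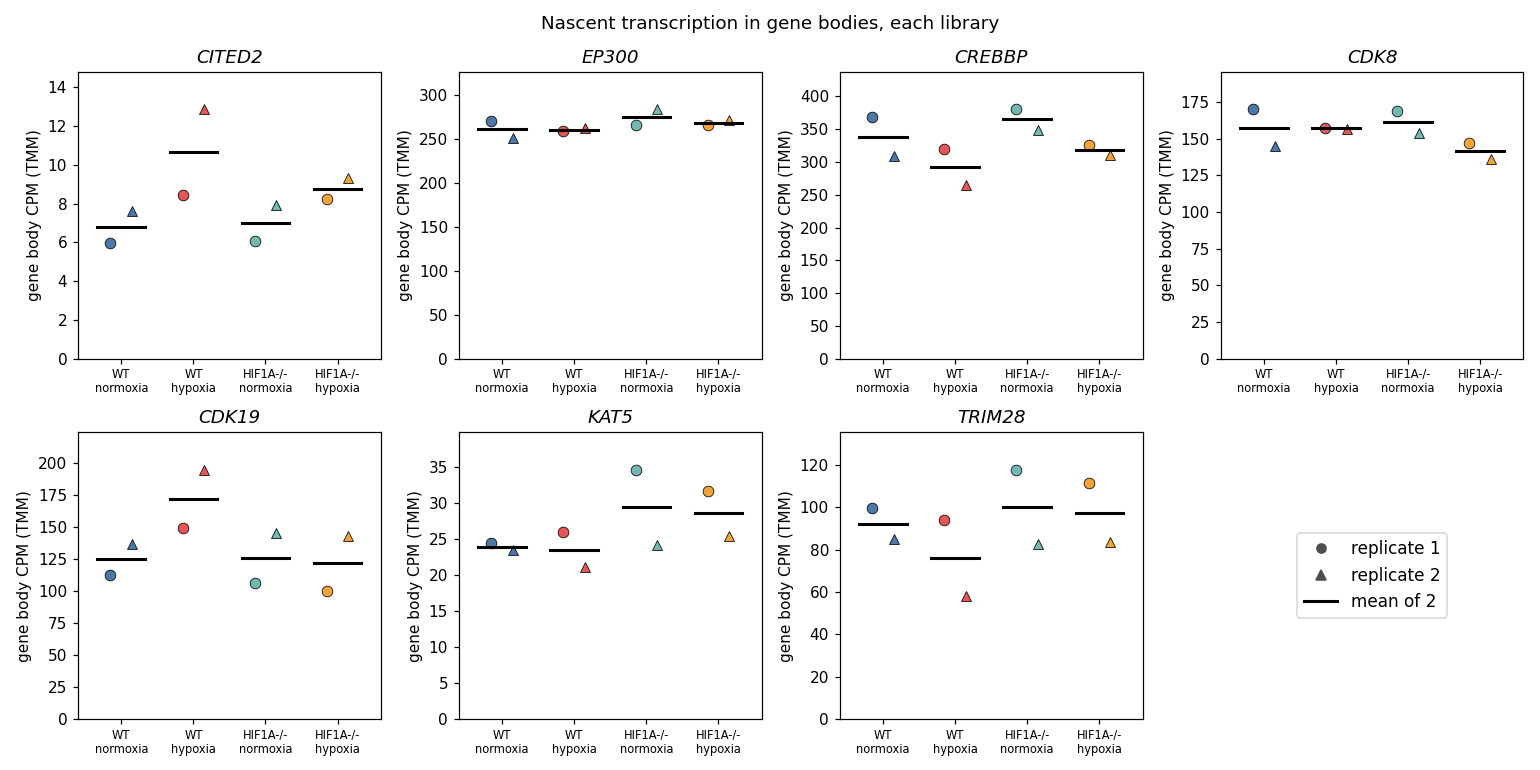
Gene body CPM (TMM-scaled) of the 7 members in each of the 8 libraries, with circles for replicate 1, triangles for replicate 2 and a black line for the mean of 2. The highest CITED2 value is that of WT hypoxia replicate 2 (12.9 CPM), both WT hypoxia libraries are above all others for CDK19 (149 and 195 CPM), and EP300 lies between 251 and 284 CPM.

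CITED2, the inhibitor that competes with HIF for p300 and CBP, had gene body levels of 5.95 and 7.61 CPM in the WT normoxia libraries and of 8.45 and 12.9 CPM in those from WT hypoxia. The HIF1A-/- libraries gave 6.08 and 7.91 CPM in normoxia and 8.21 and 9.34 CPM in hypoxia. Within each genotype the hypoxia and normoxia values did not overlap, with hypoxia higher, and the spread was widest in WT hypoxia. Groups of 2 libraries can separate without any difference between them. The share of all genes that separate was not counted, so such separation, here and below, is description only. The WT mean was 6.78 CPM ± 1.18 (SD, n = 2) in normoxia and 10.7 ± 3.11 in hypoxia, against 6.99 ± 1.30 and 8.77 ± 0.795 in HIF1A-/- cells. The log2 fold change in hypoxia was 0.66 in WT cells (SE 0.286, 95% interval -0.0049 to 1.32, edgeR adjusted p = 0.897) and 0.33 in HIF1A-/- cells (SE 0.285, -0.33 to 0.99, adjusted p = 1). With the replicate term the WT value was 0.64 (SE 0.174, adjusted p = 0.103), just outside the FDR of 10%, and the HIF1A-/- value 0.34 (SE 0.175, adjusted p = 0.596). The difference between the genotypes in the response of CITED2 was 0.33 on the log2 scale (SE 0.403, -0.60 to 1.26, adjusted p = 1). With the replicate term it was 0.31 (SE 0.247, -0.26 to 0.87, adjusted p = 0.935). Responses of equal size lie within both intervals, and responses 1.26 apart only within the interval without that term. Over 14 alternatives of fit, filter, scaling and left-out library, the WT value of CITED2 stayed positive, at 0.32 to 0.93, and passed in none (adjusted p = 0.103 to 1). The lowest value, 0.32, was that without WT hypoxia replicate 2, the library with the highest level, and without it the difference between the genotypes was -0.0065.

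The CITED2 gene body rests on 120 to 310 reads per library in 1396 bp, from 139693391 to 139694786 on chromosome 6 (minus strand). All of this region is exon of CITED2 in the annotation, and 515 bp of it is coding sequence. A long non-coding gene on the opposite strand spans it, and reads were counted by strand. The TSS region of CITED2 was far deeper, at 1183 to 2612 reads per library. WT cells gave 419 and 415 CPM in normoxia and 473 and 447 CPM in hypoxia, and HIF1A-/- cells 440 and 473 CPM, then 392 and 499 CPM. The WT groups did not overlap, with hypoxia higher, while the HIF1A-/- groups did. The log2 fold change of the CITED2 TSS region was 0.14 in WT (SE 0.147, adjusted p = 0.922) and -0.034 in HIF1A-/- cells (SE 0.147, adjusted p = 1).

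The pausing index of CITED2 was 186 and 139 in WT normoxia, and 142 and 84.5 once WT cells were in hypoxia. HIF1A-/- cells gave 192 and 148, then 123 and 129. In each genotype it was lower in hypoxia in both replicate pairs, although the WT groups overlapped. The log2 change was -0.56 in WT (SE 0.275, adjusted p = 0.854) and -0.41 in HIF1A-/- cells (SE 0.275, adjusted p = 1), and neither passed with the replicate term (adjusted p = 0.308 and 1). Without WT hypoxia replicate 2, the library with the lowest index, the WT value with the replicate term was -0.29.

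**Figure D2:**
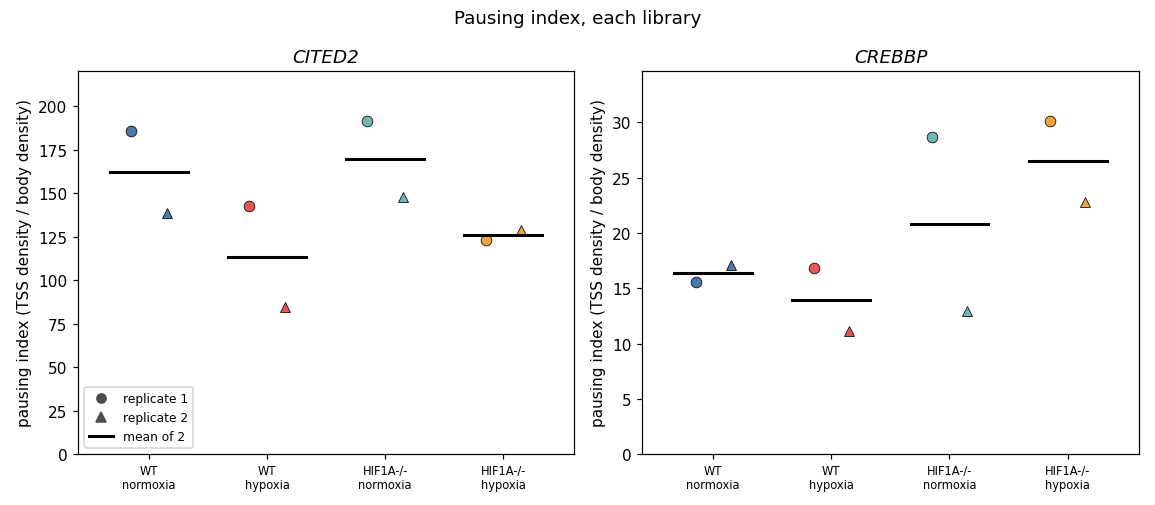
Pausing index (TSS read density over gene body read density) of CITED2 and CREBBP in each library, with circles for replicate 1, triangles for replicate 2 and a black line for the mean. CITED2 means are 162 in normoxia and 113 in hypoxia for WT and 170 and 126 for HIF1A-/- cells, differences that did not pass the test, and CREBBP is highest in HIF1A-/- hypoxia and in HIF1A-/- normoxia replicate 1.

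Genes whose gene body profile was most like that of CITED2 were found by Pearson's r of log2(CPM + 0.5) over the 8 libraries, among 16685 other genes. They included ARHGEF37 (r = 0.992), LOC100289495 (0.976), TMEM87B (0.975) and SLC9B1 (0.975). The log2 fold changes of these 4 in hypoxia were 0.43 to 0.88 in WT and 0.16 to 0.39 in HIF1A-/- cells, higher in WT for each of the 4. The points share the same 8 libraries, so these values describe likeness and carry no test. CITED1, the other family member with a row, is a low gene with 25 to 37 gene body reads per library, and its log2 fold change in hypoxia was -0.42 in WT (SE 0.398, adjusted p = 0.897) and -0.091 in HIF1A-/- cells (SE 0.401, adjusted p = 1).

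**Figure D3:**
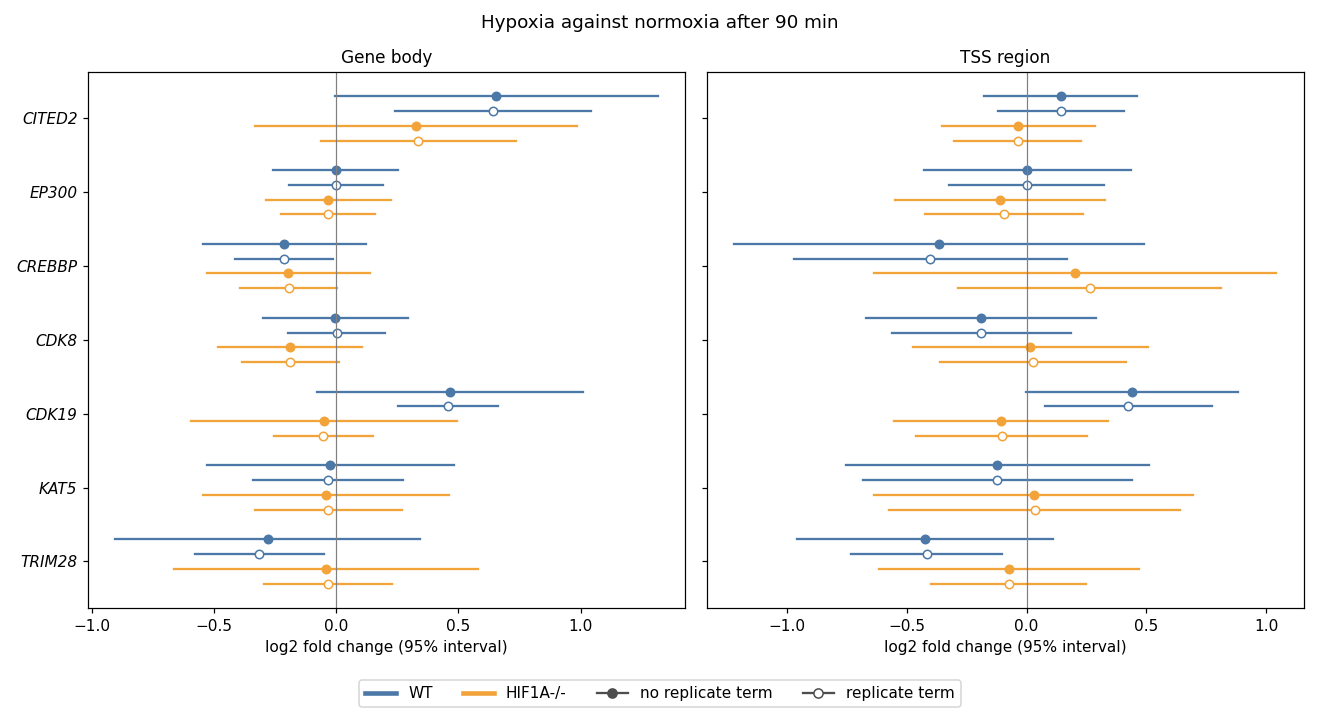
Log2 fold change of hypoxia against normoxia for the 7 members in the gene body and the TSS region, with bars for the 95% interval, WT in blue, HIF1A-/- in orange, filled points for the fit without the replicate term and open points for the fit with it. With the replicate term the WT intervals of CITED2 and CDK19 in the gene body and of CDK19 in the TSS region lie above 0, those of CREBBP and TRIM28 in the gene body and of TRIM28 in the TSS region lie below 0, and the gene body points of EP300 and KAT5 lie close to 0 in both genotypes.

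EP300 encodes p300, the acetyltransferase that HIF and CITED2 compete for. Its WT gene body levels were 271 and 251 CPM in normoxia and 259 and 262 CPM in hypoxia, and its HIF1A-/- levels 266 and 284 CPM, then 266 and 272 CPM. In WT cells the hypoxia values lay between the normoxia values, and in HIF1A-/- cells replicate 1 was nearly equal at both oxygen levels (266 CPM). The log2 fold change in hypoxia was -0.0012 in WT (SE 0.111, 95% interval -0.26 to 0.25) and -0.033 in HIF1A-/- cells (SE 0.111, -0.29 to 0.22), which bounds any response of the EP300 gene body more tightly than that of any other member. The TSS region of EP300 ranged from 107 to 169 CPM, both in HIF1A-/- normoxia, and no comparison of it passed. Its pausing index ran from 57.8 to 104, again both in HIF1A-/- normoxia, so replicates of that group spanned all other libraries.

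CREBBP encodes CBP, the paralog of p300. Its WT gene body had 369 and 308 CPM in normoxia, then 319 and 265 CPM in hypoxia. The HIF1A-/- values were 380 and 349 CPM, then 326 and 311 CPM. It was lower in hypoxia in all 4 replicate pairs, with log2 differences from -0.22 to -0.17. The WT groups overlapped and the HIF1A-/- groups did not. The fitted log2 change was -0.21 in WT (SE 0.144, adjusted p = 0.897) and -0.20 in HIF1A-/- cells (SE 0.144, adjusted p = 1). With the replicate term neither passed (adjusted p = 0.216 and 0.526), and the difference between the genotypes was -0.018 (SE 0.204, -0.49 to 0.45).

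The TSS region of CREBBP is shallow, at 64 to 114 reads per library. The 300 bases before its counted start site all lie in annotated exon of CREBBP. Its TSS region therefore begins inside the gene, and polymerases at the annotated start are not counted. Whether the counted start is the one in use was not tested. WT cells had 19.8 and 18.8 CPM in normoxia and 19.1 and 10.96 CPM in hypoxia, while HIF1A-/- cells had 37.3 and 16.5 CPM, then 34.5 and 26.6 CPM. In normoxia the genotypes overlapped, while in hypoxia both HIF1A-/- libraries lay above both WT libraries. There the log2 difference was 1.02 (SE 0.391, 95% interval 0.17 to 1.87, edgeR adjusted p = 0.287), and 1.06 with the replicate term (SE 0.270, adjusted p = 0.0133). The 2 highest values came from the HIF1A-/- libraries with the lowest TSS totals, whose part in the result was not tested. The call with the replicate term was lost without WT hypoxia replicate 1 (adjusted p = 0.101) or 2 (0.159), or without HIF1A-/- hypoxia replicate 2 (0.267), and held without HIF1A-/- hypoxia replicate 1 (0.0911). Without the replicate term the hypoxia difference was 0.66 without WT hypoxia replicate 2 and 1.47 without WT hypoxia replicate 1. In normoxia the difference was 0.45 (SE 0.392, adjusted p = 0.785, and 0.522 with the replicate term). It turned to -0.23 without HIF1A-/- normoxia replicate 1 and was 0.95 without HIF1A-/- normoxia replicate 2.

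In the TSS region, 0.046% of 15212 genes were called in WT hypoxia without the replicate term and 1.01% with it, and 0 of 7 members in either. In HIF1A-/- hypoxia 0% and 0.00657% of genes were called, and for the difference between the genotypes 0.00657% and 0.046%, with 0 of 7 members in each. HIF1A-/- against WT cells gave 0.657% and 4.29% in normoxia with 0 of 7 members, and 1.1% and 14.4% in hypoxia with 0 of 7 and, with the replicate term, 1 of 7 members, CREBBP. By edgeR without the replicate term, CREBBP was the 1 of 7 members past the unadjusted threshold of 0.05 between the genotypes in hypoxia, against 13.7% of all TSS regions, a share near the background. For the pausing index, 0.193% of 14494 genes were called in WT hypoxia and 0.635% with the replicate term, 0% in both fits in HIF1A-/- hypoxia, and 0.0207% and 0.145% for the difference between the genotypes, each with 0 of 7 members. The genotypes differed in the pausing index of 0.0138% and 0.697% of genes in normoxia, with 0 of 7 members, and of 0.649% and 6.66% in hypoxia, with 0 of 7 and 1 of 7.

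The member called for its pausing index was again CREBBP. Its index was 16.8 and 11.1 in WT hypoxia and 30.1 and 22.8 in HIF1A-/- hypoxia, without overlap, and 15.6 and 17.1 in WT normoxia against 28.7 and 12.9 in HIF1A-/- normoxia. The log2 difference in hypoxia was 0.92 (SE 0.336, adjusted p = 0.320), and 0.94 with the replicate term (SE 0.249, adjusted p = 0.0514). Leaving out any 1 of the 4 hypoxia libraries ended that call (adjusted p = 0.216 to 0.364). This index and the TSS comparison share the same TSS reads. The ratio of EP300 to CREBBP density in the TSS region ran from 3.87 to 10.4, lowest in HIF1A-/- hypoxia replicate 1 and highest in WT hypoxia replicate 2, whereas the gene body ratio ran only from 1.25 to 1.76.

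CDK8 and CDK19 are paralogs that each bind cyclin C in Mediator. The CDK8 gene body, 150135 bp on chromosome 13, had 170 and 145 CPM in WT normoxia and 157 CPM in both libraries of WT hypoxia. The HIF1A-/- values were 169 and 154 CPM in normoxia, then 147 and 137 CPM. The WT hypoxia values lay between those of WT normoxia, and in HIF1A-/- cells both hypoxia libraries lay below both normoxia libraries. The log2 fold change of CDK8 was -0.0035 in WT (SE 0.128, 95% interval -0.30 to 0.29) and -0.19 in HIF1A-/- cells (SE 0.128, -0.48 to 0.11, adjusted p = 1). The TSS region of CDK8 ran from 41.3 to 57.5 CPM and its pausing index from 68.7 to 95.9, with the lowest value of each in WT hypoxia replicate 2, and no comparison of either passed in either fit.

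The CDK19 gene body, 204908 bp on chromosome 6 of which 97.1% is intron, had 113 and 137 CPM in WT normoxia, and 149 and 195 CPM in its hypoxia libraries. The HIF1A-/- values were 106 and 146 CPM in normoxia and 100.1 and 143 CPM in hypoxia. Both WT hypoxia libraries lay above all 6 other libraries, and replicate 2 lay above replicate 1 in every group. In WT hypoxia its log2 fold change was 0.47 (SE 0.236, 95% interval -0.079 to 1.01, edgeR adjusted p = 0.897). Over the alternatives it ran from 0.26, without WT hypoxia replicate 2, to 0.66, without WT hypoxia replicate 1. With the replicate term CDK19 rose by 0.46 (SE 0.0887, adjusted p = 0.0435). That call was lost without WT normoxia replicate 2 (adjusted p = 0.279), WT hypoxia replicate 1 (0.135) or WT hypoxia replicate 2 (0.216), which each leave 1 library in a WT group, and held without the other 5. The HIF1A-/- value was -0.049 (SE 0.235, adjusted p = 1). The difference between the genotypes in the CDK19 response was 0.51 (SE 0.333, adjusted p = 1, and 0.377 with the replicate term), so the response is not shown to differ between them.

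In hypoxia the CDK19 gene body had a lower level in HIF1A-/- than in WT cells in both replicate pairs (log2 differences of -0.57 and -0.44). The log2 difference was -0.50 (SE 0.236, adjusted p = 0.358), and -0.51 with the replicate term (SE 0.0887, adjusted p = 0.00699), a call lost only without HIF1A-/- hypoxia replicate 1 (0.109) among the 8 libraries left out in turn. In the fit without that term the difference was -0.25 without HIF1A-/- hypoxia replicate 1, -0.30 without WT hypoxia replicate 2 and -0.80 without HIF1A-/- hypoxia replicate 2. In normoxia the genotypes were close, at 0.014 (SE 0.236, 95% interval -0.53 to 0.56). The WT hypoxia libraries enter both this comparison and the WT response, so the pair of results is not independent. In the TSS region of CDK19, WT cells had 55.3 and 52.5 CPM in normoxia and 63.7 and 82.4 CPM in hypoxia, and HIF1A-/- cells 61.5 and 76.2 CPM, then 60.0 and 68.1 CPM. The WT groups did not overlap and the HIF1A-/- groups did, but the log2 fold change of 0.44 in WT did not pass (SE 0.203, adjusted p = 0.922, and 0.320 with the replicate term). Its pausing index, 143 to 227 over the 8 libraries, gave a log2 change of -0.095 in WT hypoxia (SE 0.218, 95% interval -0.56 to 0.37, adjusted p = 0.952).

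Per length, the gene body of CDK19 lay below that of CDK8 in every library, with a ratio of gene body densities from 0.461 to 0.911. WT cells gave 0.485 and 0.692 in normoxia and 0.695 and 0.911 in hypoxia, and HIF1A-/- cells 0.461 and 0.691, then 0.499 and 0.769. The ratio was higher in hypoxia in all 4 replicate pairs, though only WT hypoxia replicate 2 lay above all libraries of the other groups. In the HIF1A-/- pairs CDK19 itself was not higher in hypoxia (log2 differences of -0.088 and -0.021), and CDK8 was lower (-0.20 and -0.18). In the TSS region CDK19 lay above CDK8 in every library except WT normoxia replicate 1, so the order of the paralogs differed between the regions. The TSS ratio ran from 0.961 in that library to 2.00 in WT hypoxia replicate 2. It was lower in hypoxia in the HIF1A-/- replicate 2 pair (1.81, then 1.45) and higher in the other pairs. No test was run on either ratio.

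**Figure D4:**
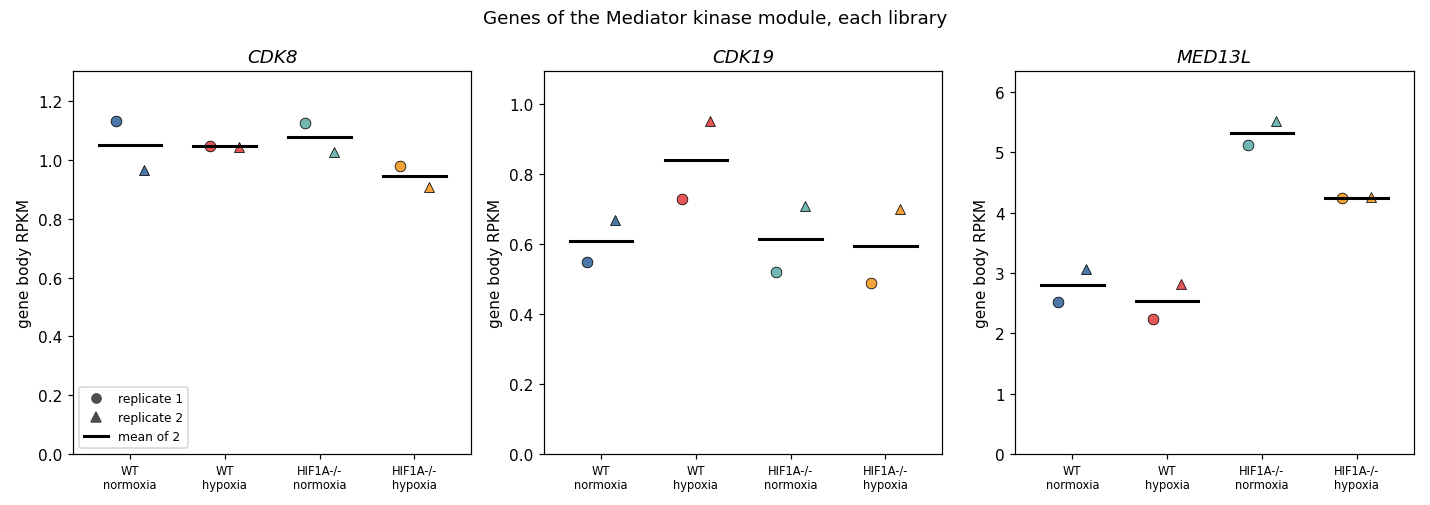
Gene body RPKM of CDK8, CDK19 and MED13L in each library, with circles for replicate 1, triangles for replicate 2 and a black line for the mean. CDK8 stays between 0.910 and 1.13 RPKM, CDK19 is highest in WT hypoxia (0.729 and 0.952), and MED13L is higher in all 4 HIF1A-/- libraries (4.24 to 5.52) than in all 4 WT libraries (2.24 to 3.07).

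The other genes of the kinase module are cyclin C (CCNC), MED12, MED12L, MED13 and MED13L, where MED12 activates the kinase and MED13 or MED13L tethers it to Mediator. None of the 5 passed in hypoxia in either genotype or in either fit, and all 5 had a negative log2 fold change in both genotypes (median -0.17 in WT, against -0.018 over all genes). MED13L was the 1 gene of the 37 partner genes listed that passed between the genotypes without the replicate term. WT cells had 802 and 975 CPM in normoxia and 713 and 893 CPM in hypoxia, while HIF1A-/- cells had 1624 and 1753 CPM, then 1348 and 1351 CPM. Every HIF1A-/- library lay above every WT library. The log2 difference was 0.93 in normoxia (SE 0.153, edgeR adjusted p = 0.0340) and 0.75 in hypoxia (SE 0.152, adjusted p = 0.0479), with 1.78% and 4.26% of all genes called. With the replicate term the adjusted p was 0.00110 and 0.00193, and MED13L was called whichever of the 8 libraries was left out. Without that term the normoxia call was lost without WT normoxia replicate 1 (0.250) or 2 (0.123) or HIF1A-/- normoxia replicate 2 (0.104), and the hypoxia call without any 1 of the 4 hypoxia libraries (0.114 to 0.220). In the MED13L TSS region the log2 difference in hypoxia was 1.14 (SE 0.374, adjusted p = 0.225), and 1.09 with the replicate term (SE 0.289, adjusted p = 0.0167). In normoxia it was 0.94 (SE 0.377, adjusted p = 0.548), and 0.89 with the replicate term (SE 0.295, adjusted p = 0.114), and passed in neither fit. MED13, its paralog, differed by 0.025 (SE 0.104) in normoxia and -0.021 (SE 0.104) in hypoxia.

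KAT5, the TIP60 acetyltransferase, had 24.4 and 23.5 CPM in WT gene bodies in normoxia and 25.9 and 21.1 CPM in hypoxia. Its HIF1A-/- values were 34.6 and 24.2 CPM, then 31.6 and 25.5 CPM. The oxygen groups overlapped in both genotypes, and the log2 fold change in hypoxia was -0.025 in WT (SE 0.219, 95% interval -0.53 to 0.48) and -0.042 in HIF1A-/- cells (SE 0.217, -0.54 to 0.46). The log2 difference of HIF1A-/- against WT was 0.30 in normoxia (SE 0.218, adjusted p = 0.856) and 0.28 in hypoxia (SE 0.218, adjusted p = 0.583), neither of which passed in either fit. The normoxia difference was 0.052 without HIF1A-/- normoxia replicate 1 and 0.54 without HIF1A-/- normoxia replicate 2, and the hypoxia difference ran from 0.13 to 0.45 over the left-out libraries. RNASEH2C, a gene on the opposite strand, shares 1935 bp of counted gene body with KAT5, and reads were counted by strand. KAT5 had 39 to 88 TSS reads per library (12.8 to 16.4 CPM), and its pausing index was the lowest of the members, at 4.99 to 8.45. The index was lower in all 4 HIF1A-/- libraries (4.99 to 6.59) than in all 4 WT libraries (6.83 to 8.45), with log2 differences of -0.54 in normoxia (95% interval -1.20 to 0.11, adjusted p = 0.790) and -0.37 in hypoxia (-1.02 to 0.27, adjusted p = 0.631) that did not pass in either fit.

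The TIP60 list held 17 other subunits of the complex. In WT hypoxia 6 of 17 had a positive log2 fold change and in HIF1A-/- hypoxia 4 of 17, without the replicate term. The medians were -0.013 and -0.096, against -0.018 and 0.0009 over all genes, and there was no call in either fit. Between the genotypes in hypoxia 0 of 17 passed without the replicate term and 4 of 17 with it, against 28.2% of all gene bodies, a share near the background. In that fit VPS72, a histone chaperone, was higher in HIF1A-/- cells by 0.36 on the log2 scale (SE 0.114, adjusted p = 0.0614). The reader and scaffold subunits ING3 (-0.53, SE 0.196, adjusted p = 0.0963), EPC1 (-0.29, SE 0.0967, 0.0715) and MORF4L2 (-0.28, SE 0.102, 0.0939) were lower. Each of these calls was lost when some single libraries were left out, and they were kept in 2 to 5 of 8 such fits, with adjusted p up to 0.460.

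TRIM28, the silencing scaffold, had 99.7 and 85.0 CPM in WT gene bodies in normoxia, then 93.9 and 58.2 CPM in hypoxia. The HIF1A-/- values were 118 and 82.7 CPM, then 111 and 83.6 CPM. The lowest value, 58.2 CPM, was that of WT hypoxia replicate 2, and the oxygen groups overlapped in both genotypes. In hypoxia its log2 fold change was -0.28 in WT cells (SE 0.270, adjusted p = 0.897, and 0.178 with the replicate term; 0.026 without WT hypoxia replicate 2 and -0.66 without WT hypoxia replicate 1) and -0.041 in HIF1A-/- cells (SE 0.269, adjusted p = 1). The log2 difference of HIF1A-/- against WT cells in hypoxia was 0.36 (SE 0.270, adjusted p = 0.570; 0.051 without WT hypoxia replicate 2 and 0.76 without WT hypoxia replicate 1), and 0.38 with the replicate term (SE 0.115, adjusted p = 0.0524). Without WT hypoxia replicate 2 that value was 0.23 and the call was lost (adjusted p = 0.316), as it was without HIF1A-/- hypoxia replicate 1 (0.173) or 2 (0.249). In the TSS region TRIM28 ran from 76.9 CPM in WT hypoxia replicate 2 to 165 CPM in WT normoxia replicate 1, and its log2 fold change in WT hypoxia was -0.42 (SE 0.246, adjusted p = 0.922, and 0.270 with the replicate term). The pausing index of TRIM28 ran from 10.4 to 16.4, and no comparison of it passed. As for CREBBP, the 300 bases before the counted start of TRIM28 all lie in annotated exon. Polymerases at its annotated start are therefore not counted, and whether the counted start is the one in use was not tested.

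**Figure D5:**
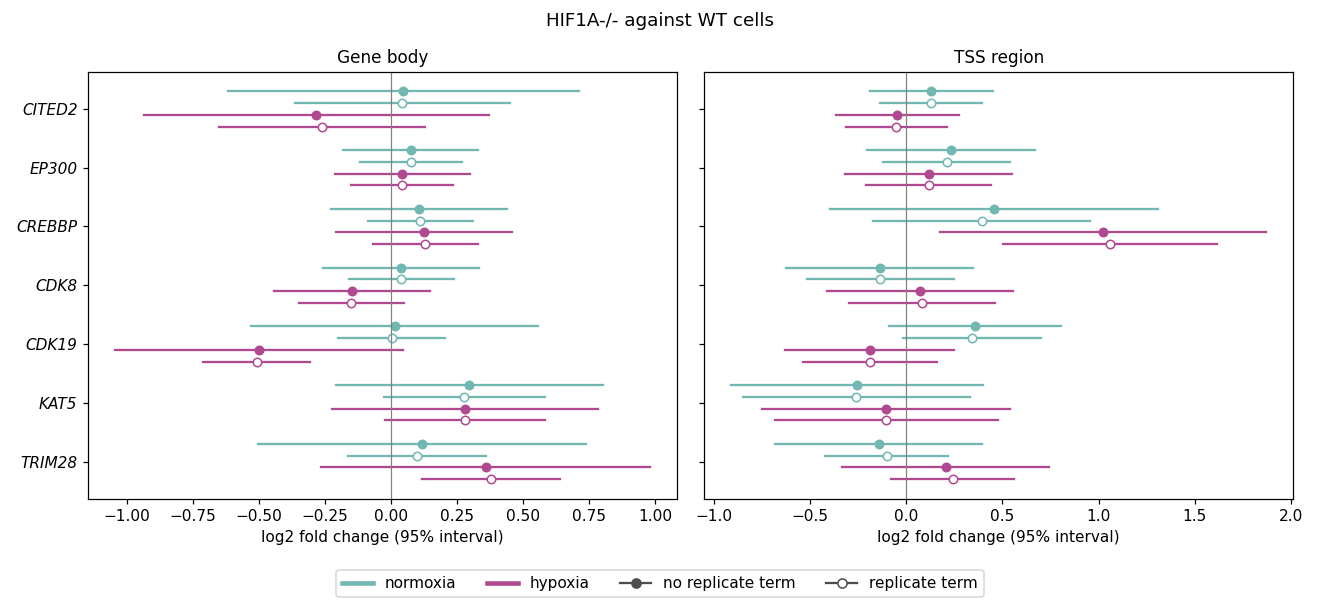
Log2 fold change of HIF1A-/- against WT cells for the 7 members in the gene body and the TSS region, with bars for the 95% interval, normoxia in teal, hypoxia in magenta, filled points for the fit without the replicate term and open points for the fit with it. In the fit with that term the hypoxia intervals of CDK19 and TRIM28 in the gene body and of CREBBP in the TSS region leave out 0, and the CREBBP interval does so without that term as well.

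Of the 6 partners of TRIM28 in heterochromatin, the methyltransferase SETDB1, the HP1 proteins CBX1, CBX3 and CBX5, CHD3 and ATRX, none passed in hypoxia in either genotype or fit. All 6 had a negative log2 difference between HIF1A-/- and WT cells at both oxygen levels, with medians of -0.11 in normoxia and -0.12 in hypoxia against -0.0055 and 0.0048 over all genes, and 1 of 6, ATRX, passed in hypoxia with the replicate term (-0.22, SE 0.0782, adjusted p = 0.0858), where 28.2% of all gene bodies were called. ATRX was called in 1 of the 8 fits that left out a library.

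The last list held 8 other coactivators reported to work with HIF, the p160 proteins NCOA1, NCOA2 and NCOA3, the acetyltransferases KAT2A and KAT2B, the remodelling ATPases SMARCA4 and SMARCA2, and the redox factor APEX1. In WT hypoxia 1 of 8 had a positive log2 fold change and in HIF1A-/- hypoxia 0 of 8. The medians were -0.28 and -0.29, against -0.018 and 0.0009 over all genes. None passed in either fit (lowest edgeR adjusted p with the replicate term, 0.122 and 0.239). SMARCA2 and KAT2B are low genes, with 61 to 125 and 110 to 281 gene body reads per library. Between the genotypes in hypoxia 3 of 8 passed with the replicate term, against 28.2% of all genes, and none without it. NCOA3 (-0.40, SE 0.0930, adjusted p = 0.0226) and KAT2B (-0.69, SE 0.255, 0.0934) were lower in HIF1A-/- cells and KAT2A (0.46, SE 0.151, 0.0681) was higher. NCOA3 was called in 5 of 8 fits that left out a library, and KAT2A and KAT2B in 4 of 8.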

How the data were processed

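PRO-seq libraries of WT and HIF1A-/- HCT116 cells were grouped from the sample labels by genotype and oxygen level. The deposited values are raw read counts per gene. The authors aligned reads to GRCh37/hg19 with HISAT2 2.1.0 without splicing, filtered them on mapping quality in SAMtools 1.5 and counted them with featureCounts (Subread 1.6.2). The authors kept a single most active TSS and the shortest gene body per gene and left out short transcripts, so alternative promoters are not seen. Counting used strand: of 882 gene bodies lying wholly inside one on the opposite strand, 691 had reads and 70 had more reads than the enclosing one.

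From the counts, genes above 0.5 CPM in at least 2 libraries were tested with edgeR 4.0.16 in R 4.3.3 (TMM, glmQLFit and glmQLFTest, 4 group means over 8 libraries), with Benjamini-Hochberg adjustment over the genes tested and a call at 10% FDR. The main fit has no replicate term because the methods of the paper name none. For the pausing index, TSS and gene body counts entered a fit of both tables with a term for each library and each table's own total. RPKM used region length and the TMM-scaled total. The edgeR fits without the replicate term were tested on simulated counts that held no replicate effect and the same spread for every gene. That spread was not estimated from these libraries, so the test does not show how well changes are found in them. Fits with the replicate term and DESeq2 were not tested in this way. Alternatives were DESeq2 1.42.0, library totals, no filter, the 4 compared libraries alone, the replicate number as a block and each library left out. The replicate numbers were taken to pair the samples: after group means were removed, same-numbered libraries correlated at 0.501 to 0.848 across genes in the gene body and 0.218 to 0.522 in the TSS region, in all 6 pairs of groups, and the paper names no shared day or batch. Leaving out libraries within the blocked fit was chosen after seeing the data.

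Named genes were the members, HIF1A, the 5 genes most like CITED2 (1 of them is not reported here) and every gene of the partner lists called in the gene body by either fit, with MED13 and CITED1 added after their values were seen. The members and lists were chosen with earlier results of these data known. Sequences came from the GRCh37 genome and exons from GENCODE lifted to that build.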

Additional observations from a re-analysis of the deposited data

How the results depend on the processing

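Without the replicate block, 0 members were called in each of the 15 tests, and the same count held in each fit of the gene body and pausing index without a block or with a library left out, except that 1 member was called for the pausing index in HIF1A-/- against WT cells in hypoxia with no filter on low counts. With the replicate block 1 member was called in the gene body in WT hypoxia and 2 in HIF1A-/- against WT hypoxia, as with DESeq2 and the block (1 and 2). In the TSS region of HIF1A-/- against WT cells in hypoxia, 1 member was called with the block, with DESeq2 and the block (1), with no filter (1) and with only the 4 libraries compared (1), and for the pausing index 1 with the block. The replicate block changed no other member's call. Of 12 values that moved past the threshold all kept their direction, and 122 values of members that were not called changed sign.

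The number of genes called moved more than the members did. It was 72 in WT gene bodies without the block and 919 with it, and leaving out 1 library gave 0 to 89. For HIF1A-/- against WT gene bodies in hypoxia it was 711 and 4706, and 165 to 863. In HIF1A-/- hypoxia edgeR called 0 gene bodies (347 at an unadjusted p under 0.05), 6 with the block, and DESeq2 with the block 162. Over all alternatives the count ran from 0 to 122 for the difference between responses (9 as reported) and from 75 to 1722 between genotypes in normoxia (297). In the TSS region it ran from 1 to 153 in WT hypoxia (7), 30 to 652 between genotypes in normoxia (100) and 33 to 2196 in hypoxia (168). For the pausing index these ranges were 8 to 100 (28), 0 to 141 (2) and 9 to 966 (94). Among the members, the lowest read numbers per library were those of KAT5 (39 to 88) and CREBBP (64 to 114) in the TSS region and of CITED2 (120 to 310) in the gene body. Low gene body counts were also found for the partner genes CITED1 (25 to 37), SMARCA2 (61 to 125), ING3 (108 to 229) and KAT2B (110 to 281). How far depth limits the values of these genes was not tested. The cause of each change was not tested.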
